A study of Eisenia fetida with 15 samples.

Results

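The sperm, axoneme and cilia unigenes are 80 of the 241846 assembled transcripts (unigenes) of the compost earthworm *Eisenia fetida*. A unigene was counted as a member when the name of its best-matching protein held sperm, cilia, flagell, axonem, dynein, tektin, radial spoke, intraflagellar or outer dense fiber. Names with spermine, spermidine or cytoplasmic dynein were left out. The choice was made by name alone, with earlier results of these data already known.

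The axoneme is the microtubule core of motile cilia and of the sperm tail. Dynein motors slide its doublet microtubules against each other, radial spokes and a central pair apparatus control that sliding, and tektins line the doublets as filaments. Earthworms are hermaphrodites whose sperm mature in seminal vesicles of the anterior segments, and motile cilia also line the funnels of their nephridia.

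RNA was sequenced from body sections of adult worms of a lindane soil test, in 15 libraries that form 5 triplets. Lindane is an organochlorine insecticide, here at a nominal 2.4 mg/kg. By the codes in the column headers, 0d-7d and 0d-28d stand for worms kept 7 d and 28 d in freshly spiked soil, 30d-7d and 30d-28d for worms kept 7 d and 28 d in spiked soil aged 30 d, and control for worms without exposure. The labels also carry a treatment text, which shifts every condition by one triplet against the code. Under that text 0d-7d would be worms at 0 d of exposure, 0d-28d would be 7 d in fresh soil, 30d-7d would be 28 d in fresh soil, 30d-28d would be 7 d in aged soil, and control would be 28 d in aged soil. Triplets are named by code, and no direction against control stands if the text is the correct one. Whether a triplet's libraries are separate worms is not stated, so each p-value reflects the spread between these libraries, which may be technical.

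The libraries held 13182058 to 28022746 counted reads, of which members took 0.0139% in control library 1 and 0.309% in 0d-28d library 3, with the 13 other libraries in between. Library 3 of 0d-28d stands apart from the other libraries in more than the members. Its extracellular globin list summed to 21.8 FPKM (a read level scaled by the unigene's length and the library's size), against 3111 to 27816 FPKM in the 14 other libraries, and 10 of its 28 globin and linker unigenes were listed at 0. Its gut enzyme list summed to 50.6 FPKM, against 79.2 to 48606 FPKM, with 53 of 102 unigenes at 0, lumbrokinases and alpha-amylases among them. It shared this low gut level with 4 other libraries at 79.2 to 213 FPKM, and 4 libraries had more gut unigenes at 0, up to 61. Its germ line list (piwi, vasa, nanos and tudor names) summed to 465 FPKM, against 45.0 to 163 FPKM, with 15 of 16 unigenes detected and a nanos-like unigene at 0. Counts and medians of the comparisons that hold 0d-28d are given with and without this library, and the part of these tissue markers in any result was not tested. In such bulk samples, fewer cells of a type and less RNA per cell cannot be told apart.

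By role, the members comprised 33 dynein heavy chains, 2 outer arm dynein light chains, 1 intermediate chain, 1 dynein assembly factor, 1 outer arm dynein binding protein, 8 radial spoke proteins, 7 tektins, 4 outer dense fiber proteins, 2 intraflagellar transport proteins, 18 unigenes with sperm in their name and 3 other flagellum names. The label fits most of these names but not all. Nuclear autoantigenic sperm protein is a histone chaperone, spermatogenesis-associated protein 5 an ATPase of ribosome maturation, and 3 heavy chains carry the word cytoplasmic. The pair named flagellar attachment zone protein 1 was matched to trypanosomes, where that protein ties the flagellum to the cell body, and an earthworm role is not given. The oyster *Crassostrea gigas* supplied the best match of 48 members. Members had a median length of 1334.5 bases, against 660 bases for all unigenes, and several short unigenes of the same name can be pieces of the same transcript.

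Most members were low. Over the 15 libraries, 37 members averaged under 1 FPKM, 10 averaged at least 5 FPKM, and 22 had at most 100 reads in all. Reads were found in all 15 libraries for 37 members. The filter on low counts left 49 of the 80 for the statistical tests, and the 31 that failed it include 12 of the members described next, which had too few reads outside 1 library. Of these 12, 3 had reads in that library alone and 9 had reads in 4 to 11 libraries. Counts and medians over the 49 are thus not counts over all members.

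Summed over members, 0d-28d libraries 1, 2 and 3 held 233, 217 and 1062 FPKM. The sums were 142, 96.0 and 163 FPKM in 0d-7d, 202, 83.6 and 173 FPKM in 30d-7d, 153, 106 and 106 FPKM in 30d-28d, and 64.8, 124 and 159 FPKM in control. Library 3 of 0d-28d was thus 4.56 times the next library, which belonged to the same triplet, and control library 1 was the lowest of all 15. These extremes have different makeups, described in turn.

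**Figure D1:**
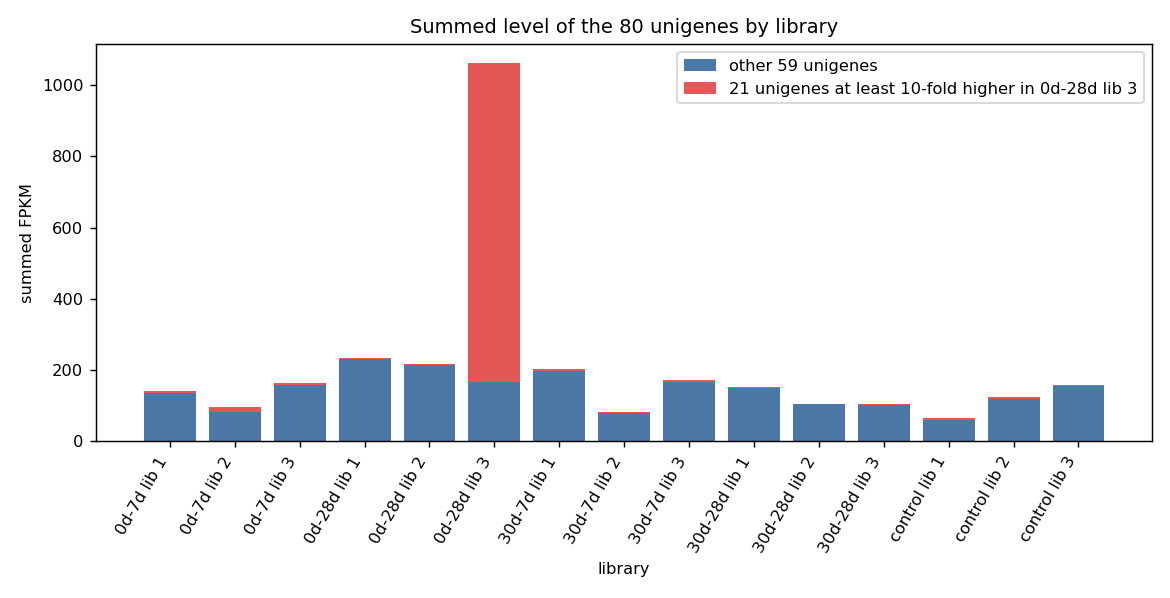
Summed FPKM of the 80 members in each of the 15 libraries, with the members that stand alone in 0d-28d library 3 drawn apart from the 59 others. The first set sums to 896 FPKM in 0d-28d library 3 and to at most 13.8 FPKM in any other library.

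Tektins gave the clearest case of transcripts found almost wholly in one library. Of 7 tektin unigenes, 5 were at least 10 times higher in 0d-28d library 3 than in any other library. Tektin-3 contig_286419 stood at 0.562, 0.109 and 164 FPKM in 0d-28d libraries 1, 2 and 3. It stood at 1.90, 2.49 and 1.45 FPKM in 0d-7d, at 0.112, 1.19 and 0.442 in 30d-7d, at 0.458, 0.575 and 0.410 in 30d-28d, and at 0.789, 0.915 and 0.602 in control. The 2 other libraries of its own triplet were below every control library, so the mean of 55.0 ± 94.8 FPKM (SD, n = 3) describes no library of 0d-28d. The 4 further tektin-3 unigenes of this kind reached 107, 88.0, 57.9 and 37.9 FPKM in that library (contig_335647, contig_362451, contig_452693 and contig_452722). Their highest values elsewhere were 0.965, 1.23, 0.408 and 0.194 FPKM, each in 0d-7d library 2.

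Some unigenes of other axonemal parts had the same distribution, while most did not. Of the 4 unigenes named outer dense fiber protein 3, a sperm tail component, contig_452327 reached 68.2 FPKM and contig_357544 reached 43.0 FPKM in 0d-28d library 3, against at most 0.589 and 0.452 FPKM elsewhere. Both unigenes of outer arm dynein light chain 1, a small subunit bound to an outer arm heavy chain, belonged here. Contig_453243 stood at 57.8 FPKM with 928 reads in that library and at 0.703 FPKM or less elsewhere, and First_Contig6035 at 17.9 FPKM against at most 0.054 FPKM. Neither light chain had a read in 0d-28d libraries 1 and 2 or in any 30d-28d library.

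Radial spoke protein 3, a spoke stalk component, was likewise carried by one unigene, contig_403062, with 52.0 FPKM and 1199 reads in that same library and 0.541 FPKM or less elsewhere. The 7 other radial spoke unigenes were not of this kind.

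Among the heavy chains, the motor subunits of the dynein arms, 5 of 33 stood alone in that library. Dynein heavy chain 8 (contig_170264), an outer arm motor, held 0.582, 1.01 and 28.3 FPKM in 0d-28d libraries 1, 2 and 3. It held 0.487, 0.890 and 0.1 FPKM in 0d-7d, 0.970, 0.0970 and 0.376 in 30d-7d, 0.539, 0.0470 and 0.0360 in 30d-28d, and 0.851, 0.756 and 0.651 in control. Its 2 other 0d-28d libraries lay on either side of the control values. Dynein heavy chain 7 contig_378105 stood at 10.8 FPKM with 2132 reads in 0d-28d library 3, against at most 0.261 FPKM elsewhere. Short pieces named heavy chain 1 (contig_425053), 5 (contig_452928) and 7 (contig_459330) had 20, 19 and 4 reads in 0d-28d library 3 and none in the 14 others.

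Of the 18 sperm names, 5 stood alone in the same way. Sperm-associated antigen 6, a central pair protein in mouse sperm, held 42.2 FPKM (contig_286955) in that library and no more than 0.708 FPKM elsewhere. Cation channel sperm-associated protein 4 (contig_452178), a pore subunit of the sperm tail calcium channel in mammals, held 13.3 FPKM against at most 0.224 FPKM. The sperm-specific sodium proton exchanger (contig_447609) held 33.9 FPKM against at most 3.38 FPKM, and nuclear autoantigenic sperm protein (contig_178148) held 33.5 FPKM against at most 3.13 FPKM. The unigene named sperm membrane protein (contig_235016) held 3.62 FPKM against at most 0.183 FPKM. The one further member of this kind was a flagellar associated protein (contig_402635), with 27.8 FPKM against at most 0.907 FPKM. The exchanger sat just inside the 10-fold limit at 10.04-fold, and dynein beta chain contig_131499 just outside at 9.08-fold. The limit and the set were chosen after the values had been seen, as were the unigenes of this set that had too few reads elsewhere to be tested.

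**Figure D2:**
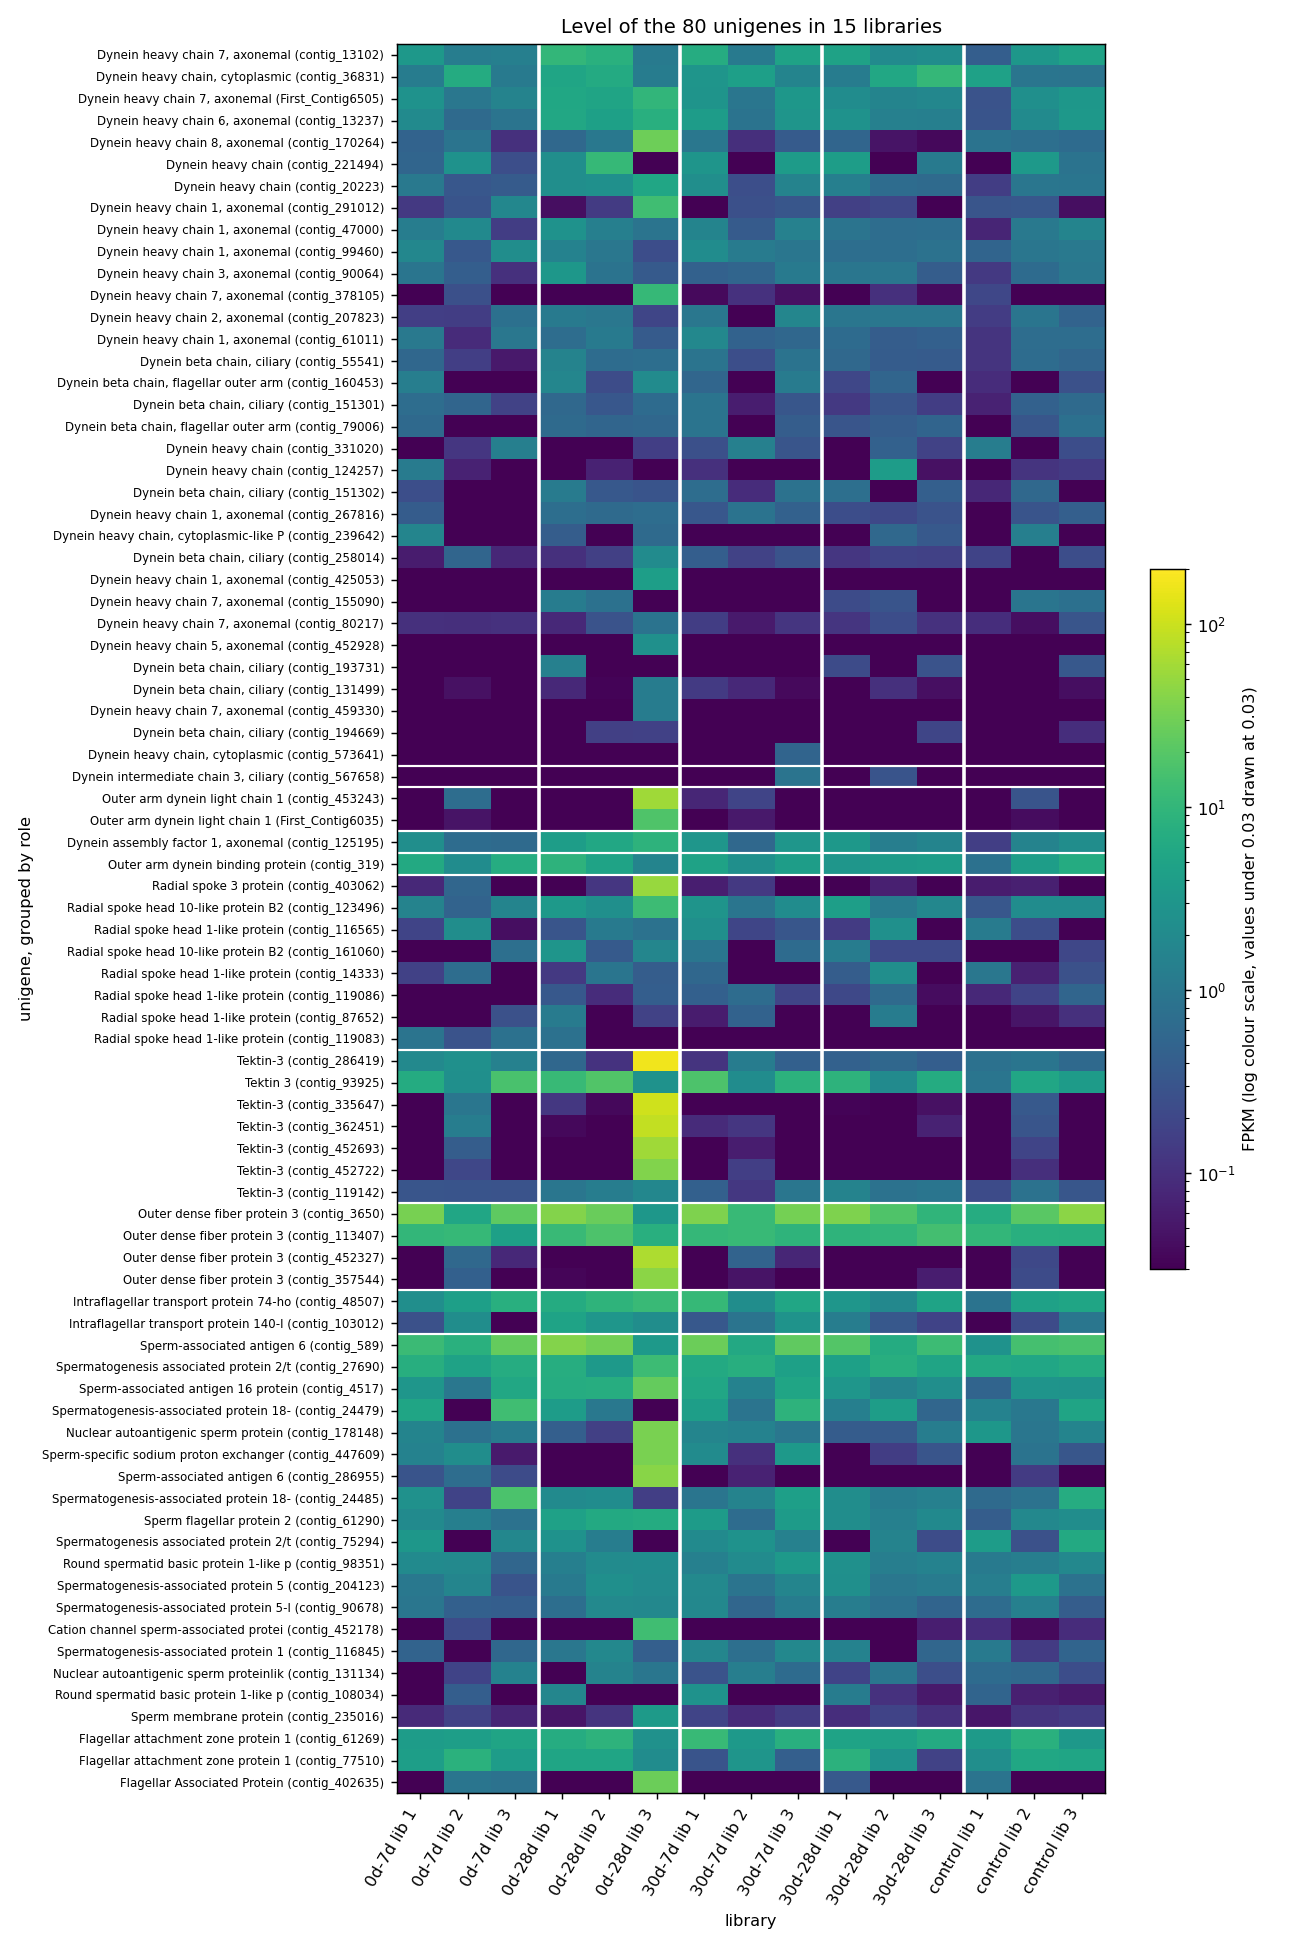
Level of each of the 80 members in each of the 15 libraries, as FPKM on a log color scale. Members are grouped by role down the page and libraries by triplet from left to right. Rows bright in 0d-28d library 3 and far lower in the 14 other libraries lie in several role groups. They include 5 of 7 tektins, 2 of 2 light chains, 2 of 4 outer dense fiber proteins and 5 of 18 sperm names.

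Together the 21 members summed to 896 FPKM in 0d-28d library 3 and to 1.56 to 13.8 FPKM in the other libraries, a 64.7-fold gap to the next. They made up 84.3% of the members' summed FPKM in that library and 0.725% to 14.4% in the others. Of the 49 tested members, 9 stood alone there (18.4%), against 0.783% of all tested unigenes. Library 3 of 0d-28d also held the highest value for 22 of the 49, against 11.9% of all tested unigenes. The same library was credited with the lowest value for 5 of the 49, against 11.9% of all tested unigenes. A tied lowest value was credited to the first library in order, so both shares can be too low. Members contig_24479 and contig_108034 also stood at 0 FPKM in this library, tied with libraries that came earlier.

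The low values of this set elsewhere were not spread evenly. Library 2 of 0d-7d was the second-highest library for 13 of the 18 members with any read outside 0d-28d library 3. For the 14 members with at least 500 reads in 0d-28d library 3, the level in 0d-7d library 2 was 0.511% to 6.67% of the level in 0d-28d library 3, with a median of 1.31%. The median was 0.335% in control library 2 and 0.309% in 30d-7d library 2. Beta-tubulin contig_98219, no member but a subunit of the microtubules on which these proteins sit, had the same profile. It stood at 1205 FPKM in 0d-28d library 3, at 12.1 FPKM in 0d-7d library 2, at 1.57 FPKM in 30d-7d library 2 and at 2.49 FPKM in control library 2, and at 0.081 FPKM or less in the 11 others. The number 2 did not mark the higher libraries throughout. The set summed to 13.8, 5.54 and 4.42 FPKM in library 2 of 0d-7d, control and 30d-7d. In library 2 of 0d-28d and of 30d-28d it summed to 1.57 and 1.56 FPKM, and in control library 1 to 6.12 FPKM. Whether libraries of the same number share anything was not given in the labels.

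For several proteins, one unigene was high in 0d-28d library 3 and another of the same name was lower there than in the 2 other 0d-28d libraries. Sperm-associated antigen 6 contig_589 held 38.6, 31.1 and 3.48 FPKM in 0d-28d libraries 1, 2 and 3. It held 12.1, 8.04 and 25.2 FPKM in 0d-7d, 27.8, 6.10 and 23.0 in 30d-7d, 19.2, 6.75 and 12.4 in 30d-28d, and 2.71, 15.1 and 16.1 in control. Library 3 of 0d-28d was thus the second lowest of 15 for this unigene while its partner contig_286955 was near 0 in the others.

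Outer dense fiber protein 3 contig_3650 was the most abundant member, with a mean of 22.9 FPKM over all libraries. It held 38.8, 27.2 and 3.18 FPKM in 0d-28d, 33.3, 5.59 and 22.7 in 0d-7d, 36.3, 11.1 and 31.3 in 30d-7d, 36.2, 17.5 and 9.38 in 30d-28d, and 7.01, 21.2 and 43.1 in control. Its lowest value of all 15 was in 0d-28d library 3, the library in which its partners contig_452327 and contig_357544 were high.

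Tektin 3 contig_93925 held 11.4, 18.4 and 2.68 FPKM in 0d-28d, and dynein heavy chain 7 contig_13102 held 10.1, 8.15 and 1.11 FPKM there. Across the 12 other libraries these unigenes ranged from 0.932 to 16.9 FPKM and from 0.411 to 7.08 FPKM. Enkurin (contig_12474), an axonemal calmodulin-binding protein outside the member list, followed them with 23.0, 24.0 and 3.81 FPKM in 0d-28d and 2.24 to 19.9 FPKM elsewhere. Alpha tubulin contig_1426 held 402, 492 and 40.3 FPKM in 0d-28d and 59.3 to 536 FPKM elsewhere. How reads that match several unigenes were counted is not given in the sources used here, so the split between unigenes of the same name is uncertain. The pairs were picked by name after the values had been seen. Not all unigenes of these names were lower in library 3 of 0d-28d or near 0 elsewhere. In 0d-28d, heavy chain 7 First_Contig6505 held 5.74, 5.16 and 9.80 FPKM and contig_80217 held 0.084, 0.283 and 0.849 FPKM. Tektin-3 contig_119142 held 0.949, 1.25 and 1.75 FPKM there, while outer dense fiber protein 3 contig_113407 held 11.9, 17.0 and 7.74 FPKM.

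**Figure D3:**
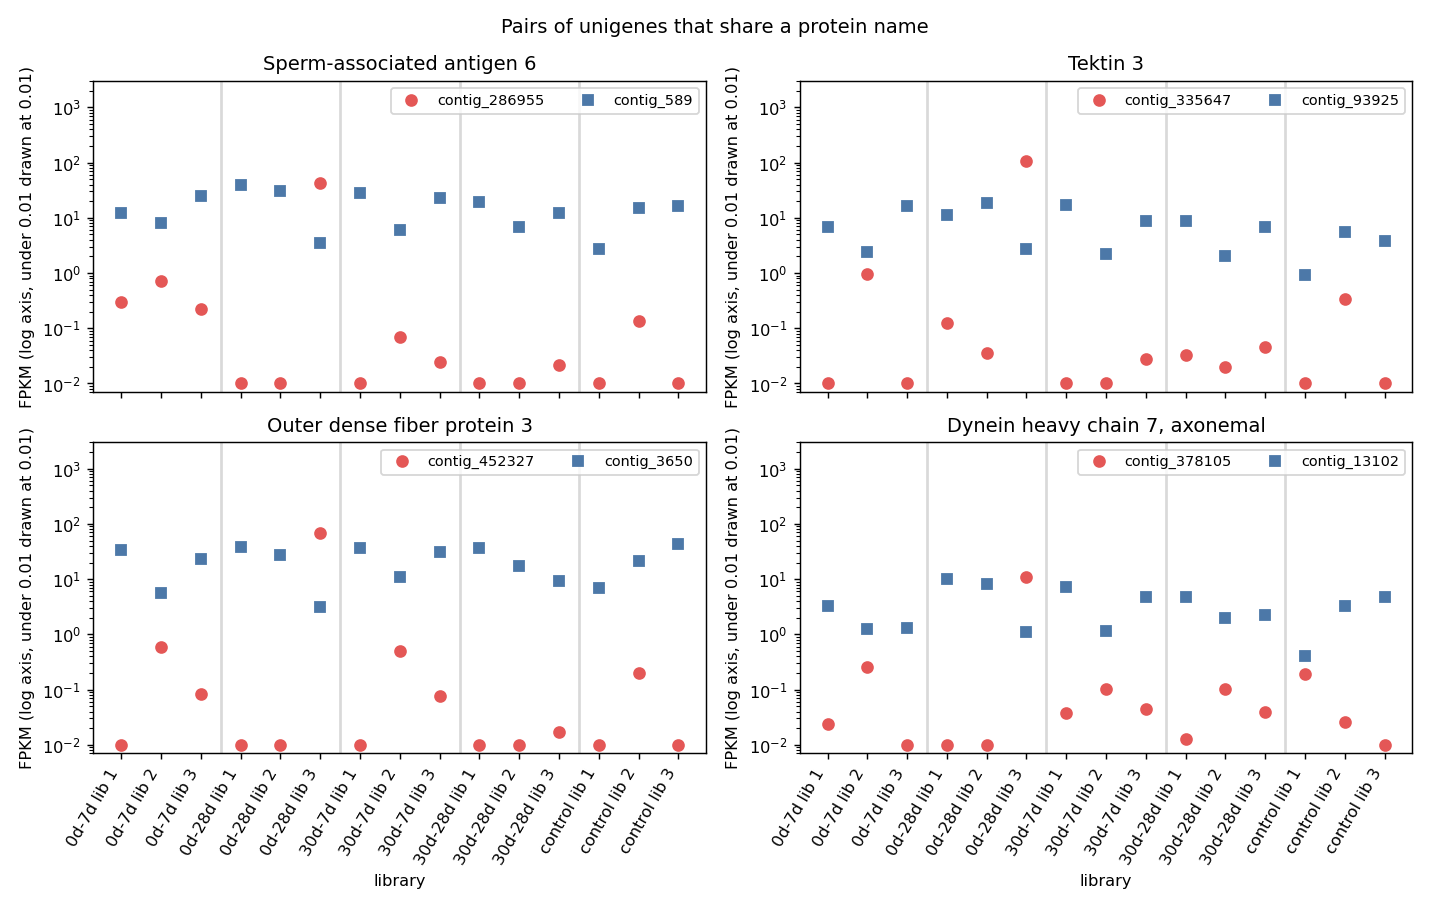
FPKM by library, on a log axis, of unigenes that share a protein name, in one panel for each of 4 proteins. For sperm-associated antigen 6 in 0d-28d library 3, contig_589 stands at 3.48 FPKM, above control library 1 (2.71 FPKM) and below the 13 other libraries, while contig_286955 stands at 42.2 FPKM.

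The remaining 59 members showed a milder pattern that did not rest on library 3 alone. Their sums were 231, 216 and 166 FPKM in 0d-28d, 136, 82.2 and 159 FPKM in 0d-7d, 197, 79.2 and 167 FPKM in 30d-7d, 151, 104 and 103 FPKM in 30d-28d, and 58.7, 119 and 156 FPKM in control. Libraries 1 and 2 of 0d-28d were the highest of all 15, library 3 overlapped with 30d-7d, and every 0d-28d library was above every control library.

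The members with all 3 0d-28d libraries above the 12 others were 2 dynein heavy chains, the dynein assembly factor and 2 central pair proteins. The marker of the group, dynein heavy chain 7 First_Contig6505, an inner arm motor of 12970 bases, held 5.74, 5.16 and 9.80 FPKM in 0d-28d. It held 2.71, 0.992 and 1.53 FPKM in 0d-7d, 2.90, 0.965 and 3.20 in 30d-7d, 2.20, 1.62 and 1.74 in 30d-28d, and 0.286, 2.39 and 3.15 in control. Dynein heavy chain 6 contig_13237, another inner arm motor, held 5.84, 4.53 and 7.84 FPKM in 0d-28d, 2.06, 0.638 and 0.895 in 0d-7d, 3.91, 0.861 and 2.96 in 30d-7d, 2.71, 1.39 and 1.32 in 30d-28d, and 0.300, 2.03 and 3.32 in control. Both chains kept a gap to the next triplet while control library 1 was far below the 2 other control libraries.

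Dynein assembly factor 1 (contig_125195), which helps to preassemble dynein arms in the cytoplasm, held 4.10, 5.95 and 8.89 FPKM in 0d-28d, 2.34, 0.667 and 0.621 in 0d-7d, 3.07, 0.590 and 3.06 in 30d-7d, 3.26, 1.30 and 1.62 in 30d-28d, and 0.155, 1.55 and 2.24 in control. Sperm flagellar protein 2 (contig_61290), a central pair protein in mouse, held 4.62, 6.24 and 6.64 FPKM in 0d-28d, 2.01, 1.34 and 0.829 in 0d-7d, 3.81, 0.670 and 3.83 in 30d-7d, 2.23, 1.37 and 1.95 in 30d-28d, and 0.400, 1.85 and 2.25 in control. Sperm-associated antigen 16 (contig_4517), also of the central pair in mouse, held 6.89, 7.14 and 24.7 FPKM in 0d-28d, 3.01, 0.998 and 5.91 in 0d-7d, 5.42, 1.47 and 5.23 in 30d-7d, 3.06, 1.55 and 2.29 in 30d-28d, and 0.511, 2.89 and 2.75 in control. For sperm flagellar protein 2 the 3 libraries of 0d-28d were close together, whereas library 3 was far above the 2 others for antigen 16.

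**Figure D4:**
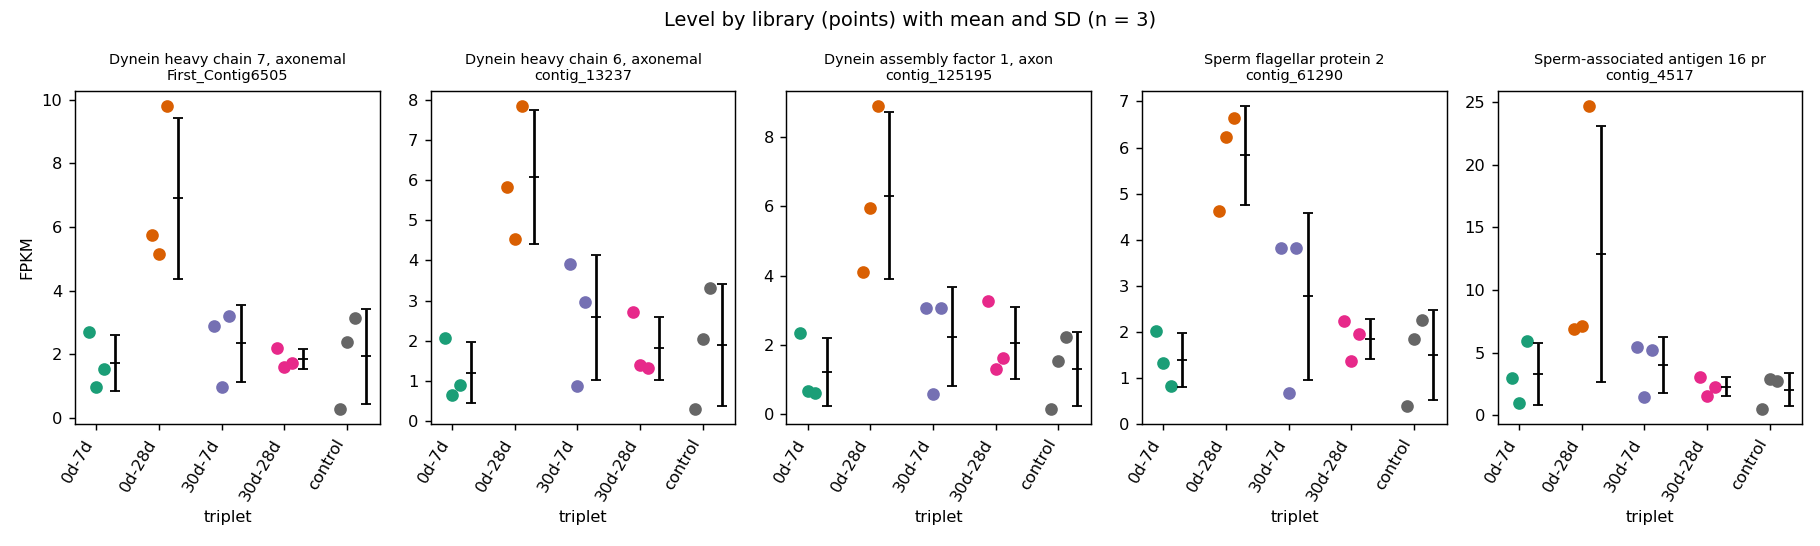
FPKM by library of the 5 members whose 3 libraries of 0d-28d all lie above the 12 other libraries, with the 4 spiked-soil triplets on the left, control on the right, and a bar at each triplet's mean. First_Contig6505 averages 6.90 FPKM in 0d-28d and 1.94 FPKM in control, with control library 1 at 0.286 FPKM.

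These 5 are 10.2% of the 49 tested members, against 0.413% of all tested unigenes. Without 0d-28d library 3, 7 of the 49 had both remaining libraries above the 12 others, against 1.79% of all tested unigenes. No tested member had all libraries of another triplet above the 12 others, against 0.273% of all tested unigenes for 0d-7d, 0.151% for 30d-7d, 0.11% for 30d-28d and 0.128% for control. The 5 were selected by this separation, so the test values given next describe them and do not add support.

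None of the 49 tested members passed in the comparison of 0d-28d with control, the worms at 28 d in fresh soil against the unexposed worms by code. With edgeR's quasi-likelihood test and Benjamini-Hochberg adjustment over all tested unigenes at 0.05, 0 members were called, against 0.000989% of all tested unigenes (1 unigene). At an unadjusted p under 0.05 there were 16 members, all higher in 0d-28d, against 4.73% of all tested unigenes higher by that measure. DESeq2 called 0 members as well, against 0.742% of all unigenes it gave an adjusted p, and limma called 0, against 0.00396% of all tested unigenes (4 unigenes). DESeq2 gave 38 of the 80 members an adjusted p in this contrast, the lowest being 0.0904.

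The size of the differences was nevertheless one-sided. Of the 49, 44 had a higher fitted level in 0d-28d, with a median log2 difference of 1.48, against 50.01% positive and a median of 0.00 over all tested unigenes. All 3 libraries of 0d-28d were above all control libraries for 10 members and below them for 0, against 5.09% and 5.66% of all tested unigenes. Without 0d-28d library 3 the median log2 difference was 0.64 over 57 tested members and -0.12 over all tested unigenes, and 38 of the 57 were positive (66.7%, against 44.8% of all). An unadjusted p under 0.05 was then found for 7 members, 5 of them higher, against 5.78% of all tested unigenes in either direction. By FPKM in single libraries, 16 of the 49 were wholly higher without it and 3 wholly lower, against 13.1% and 10.4% of all tested unigenes.

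First_Contig6505 differed by 2.02 ± 0.75 (log2, SE, adjusted p = 0.591 by edgeR). Heavy chain 6 contig_13237 differed by 1.88 ± 0.78, the assembly factor contig_125195 by 2.36 ± 0.91, sperm flagellar protein 2 contig_61290 by 2.15 ± 0.70 and antigen 16 contig_4517 by 2.83 ± 0.86, all at the same adjusted p. Leaving out control library 1 lowered the difference to 1.495 for First_Contig6505, 1.355 for contig_13237, 1.821 for contig_125195 and 1.677 for contig_61290. Each of these was the unigene's lowest value when single libraries were left out. Antigen 16 contig_4517 was lowest without 0d-28d library 3, at 1.83. Tektin-3 contig_286419 had one of the lowest unadjusted p-values with 6.43 ± 2.02, also at adjusted p = 0.591, and without 0d-28d library 3 its difference turned to -1.13. For the abundant unigenes lower in that library than in the 2 other 0d-28d libraries, differences were 1.30 ± 0.88 for antigen 6 contig_589, 1.32 ± 0.92 for heavy chain 7 contig_13102 and -0.05 ± 0.91 for outer dense fiber protein 3 contig_3650. None of these differences passed the threshold.

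Split by the profile above, the 9 tested members that stood alone in 0d-28d library 3 had a median log2 difference of 5.89 here. These 9 were selected by their level in that library, so a large positive value follows from the selection and adds no support. The 40 other tested members had a median of 1.17. All 10 members with 0d-28d wholly above control were among the 40.

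Against 0d-7d, the shorter stay in fresh soil by code, 0d-28d gave 0 called members by edgeR, as it gave 0 called unigenes in all (0%). Here 20 of 49 members had an unadjusted p under 0.05, all higher in 0d-28d, against 5.84% of all tested unigenes. With library 3 of 0d-28d left out it was 14 of 57, 10 of them higher, against 5.94% of all in either direction. The median log2 difference was 1.93, or 0.86 without 0d-28d library 3, and 10 members were wholly higher and 0 wholly lower, against 4.82% and 6.27% of all tested unigenes. By libraries 1 and 2 of 0d-28d alone, 14 of the 49 were wholly higher and 4 wholly lower, against 11.4% and 10.8% of all. Sperm flagellar protein 2 contig_61290 held 4.62, 6.24 and 6.64 FPKM in 0d-28d and 2.01, 1.34 and 0.829 FPKM in 0d-7d, a log2 difference of 2.35 ± 0.71 (adjusted p = 0.528, edgeR). A unigene named dynein heavy chain, contig_20223, held 2.29, 2.47 and 5.53 FPKM in 0d-28d and 1.04, 0.326 and 0.382 FPKM in 0d-7d, a difference of 2.85 ± 0.87 at the same adjusted p. In both the triplets did not overlap.

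Soil aging at 28 d by code, 30d-28d against 0d-28d, gave 0 called members and 0 called unigenes (0%) by edgeR. Of 49 members, 42 had a lower fitted level in 30d-28d, with a median log2 difference of -1.13, or -0.49 without 0d-28d library 3. An unadjusted p under 0.05 was found for 16 members, all lower in 30d-28d, against 4.15% of all tested unigenes. Leaving out 0d-28d library 3, it was found for 0 of 57, against 3.7% of all in either direction. In 11 members 30d-28d lay wholly below 0d-28d and in 0 above, against 4.5% and 4.82% of all tested unigenes. Set against libraries 1 and 2 of 0d-28d alone, 18 of the 49 were wholly lower in 30d-28d and 1 wholly higher, against 11.3% and 8.73% of all. The lowest unadjusted p-values were those of heavy chain 8 contig_170264 (-5.72 ± 1.68) and tektin-3 contig_286419 (-6.99 ± 2.08), both at adjusted p = 0.775 with edgeR. Without 0d-28d library 3 the tektin difference was 0.59, so its direction rested on that library. The change of the aging difference between 7 d and 28 d, added after the data were seen, was called in 0 of 49 members (0% of all tested unigenes), with 11 at an unadjusted p under 0.05 (5.6% of all) and a lowest adjusted p of 0.868 by edgeR. When 0d-28d library 3 was left out, 5 of 57 members had an unadjusted p under 0.05, against 4.64% of all.

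The diagonal comparison of 30d-7d with 0d-28d, fresh soil at 28 d against fresh soil at 7 d if the treatment text is right, gave 0 called members and 0 called unigenes (0%) by edgeR. The median log2 difference was -0.90, or -0.57 without 0d-28d library 3, and 13 members had an unadjusted p under 0.05, all lower in 30d-7d, against 3.93% of all tested unigenes. Without that library 2 of 57 had such a p, both higher in 30d-7d, against 4.34% of all in either direction. In 6 members 30d-7d was wholly lower and in 1 wholly higher, against 3.37% and 5.62% of all tested unigenes. The counts against libraries 1 and 2 of 0d-28d alone were 12 wholly lower and 5 wholly higher, against 9.50% and 10.4% of all. Antigen 6 contig_286955 (-8.78 ± 2.86) and tektin-3 contig_286419 (-6.81 ± 2.06) led, at adjusted p = 0.789, and without 0d-28d library 3 they stood at 3.38 and 0.76. The 3.38 rests on 0, 2 and 1 reads in 30d-7d and on 0 and 0 reads in 0d-28d libraries 1 and 2, so it gives no direction.

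**Figure D5:**
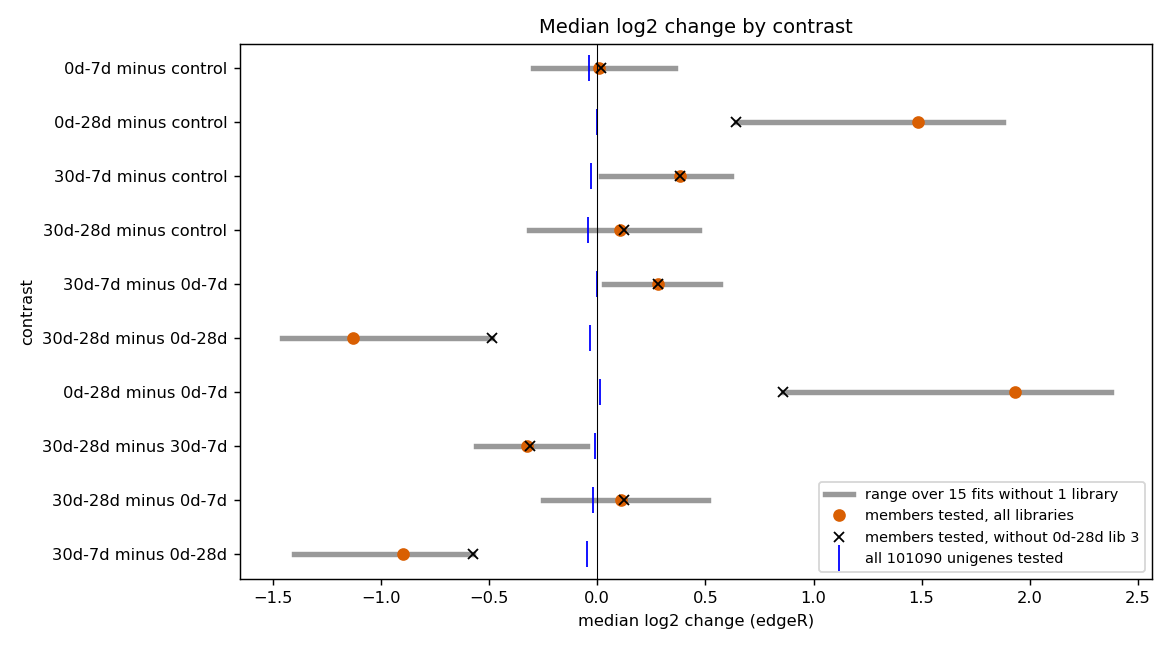
Median log2 difference over tested members in each of the 10 comparisons of triplets, with all libraries and without 0d-28d library 3, beside the median over all tested unigenes. The 4 comparisons that hold 0d-28d have the medians farthest from 0 (1.93 at most), and each is nearer to 0 without library 3. Medians are over 49 tested members with all libraries and over 57 without library 3.

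In the 6 comparisons without 0d-28d few members had a low p, while the share of positive differences was off that of all tested unigenes in some. The comparison of 0d-7d with control had 0 called members (0.000989% of all tested unigenes called), 1 member with an unadjusted p under 0.05 (4.74% of all) and a median log2 difference of 0.01. The comparisons of 30d-7d and of 30d-28d with control had 0 called members (0.000989% of all in each), 0 with an unadjusted p under 0.05 (3.5% and 4.31% of all), and medians of 0.38 and 0.11. In 30d-7d against control 34 of the 49 were positive (69.4%, against 48.2% of all, whose median was -0.03), and in 30d-28d against control 28 (57.1%, against 47.4% of all). Without control library 1 these medians were 0.02 and -0.32 over 57 tested members, so the second turned. In 30d-7d against 0d-7d, 30d-28d against 30d-7d and 30d-28d against 0d-7d, 0 members and 0 unigenes (0%) were called, 1, 0 and 2 members had an unadjusted p under 0.05 (4.21%, 3.09% and 5.32% of all), and the medians were 0.28, -0.33 and 0.11. In 30d-28d against 30d-7d 14 of the 49 were positive (28.6%, against 49.2% of all, whose median was -0.01). The F test across the 5 triplets called 0 members (0.000989% of all), with 15 of 49 at an unadjusted p under 0.05 against 6.07% of all, and a lowest adjusted p of 0.708 by edgeR. The F test without 0d-28d library 3 gave 2 of 57 members an unadjusted p under 0.05, against 4.41% of all.

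The members with the lowest p in those comparisons came from several roles. A radial spoke head 1-like unigene, contig_119086, held 0.029, 0.027 and 0 FPKM in 0d-7d, 0.439, 0.664 and 0.181 in 30d-7d, 0.201, 0.638 and 0.040 in 30d-28d and 0.083, 0.175 and 0.534 in control. Its log2 difference was -3.60 ± 1.24 in 0d-7d against control, 4.27 ± 1.26 in 30d-7d against 0d-7d and 3.80 ± 1.25 in 30d-28d against 0d-7d, with adjusted p-values of 1, 1 and 0.885 by edgeR. Thus 0d-7d was wholly below each of these triplets, at levels where a library holds few reads.

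Tektin-3 contig_119142, with contig_93925 one of the 2 tektins under the 10-fold limit, held 1.51, 0.843 and 0.929 FPKM in 30d-28d, 0.304, 0.291 and 0.283 in 0d-7d and 0.224, 0.833 and 0.315 in control. Its difference was 2.03 ± 0.72 in 30d-28d against 0d-7d, 1.33 ± 0.70 against control and 1.21 ± 0.70 against 30d-7d, with adjusted p-values of 0.885, 1 and 1 by edgeR. In the comparisons with 0d-7d and with control the triplets did not overlap, against control only just, with 0.843 FPKM as the lowest value of 30d-28d and 0.833 FPKM as the highest of control.

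Flagellar attachment zone protein 1 contig_77510 stood at 0.291, 2.92 and 0.426 FPKM in 30d-7d, against 2.31, 5.70 and 5.28 in control, a difference of -1.94 ± 1.10. Against 0d-7d, with 4.14, 8.31 and 3.95 FPKM, the difference was -2.18 ± 1.11, and 30d-28d differed from 30d-7d by 1.76 ± 1.09. Spermatogenesis-associated protein 5 contig_204123 differed by -0.95 ± 0.70 in 0d-7d against control. Round spermatid basic protein 1-like contig_98351 differed by 0.75 ± 0.56 in 30d-7d against control, and the cytoplasmic-named heavy chain contig_36831 by 1.48 ± 0.98 in 30d-28d against control. Each had an adjusted p of 1 by edgeR.

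Intraflagellar transport, the traffic that builds cilia, was represented by 2 unigenes. Protein 74 contig_48507, of the anterograde complex, held 6.66, 9.32 and 11.5 FPKM in 0d-28d, 2.30, 4.27 and 7.78 in 0d-7d, 10.8, 2.24 and 5.52 in 30d-7d, 3.06, 1.86 and 4.98 in 30d-28d and 0.844, 4.61 and 5.39 in control. It was wholly above control and 30d-28d in 0d-28d and overlapped with the others. Protein 140 contig_103012, of the retrograde complex, was not tested and held 4.88, 3.08 and 2.28 FPKM in 0d-28d against at most 2.80 FPKM elsewhere.

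Among further members with the highest means of their roles, some had similar means across triplets. Outer dense fiber protein 3 contig_113407 averaged 12.2 ± 4.62 FPKM in 0d-28d, 8.61 ± 3.53 in 0d-7d, 10.4 ± 0.958 in 30d-7d, 11.2 ± 2.82 in 30d-28d and 8.51 ± 1.47 in control (SD, n = 3 each). Spermatogenesis-associated protein 2 (contig_27690), an adaptor of a deubiquitinase, averaged 7.73 ± 4.46 FPKM in 0d-28d and between 5.64 and 6.44 FPKM in the other triplets. Its single libraries ran from 3.52 to 12.4 FPKM, both ends within 0d-28d. The outer arm dynein binding protein contig_319 averaged between 3.54 and 5.14 FPKM, while its single libraries ran from 0.81 to 8.84 FPKM. All triplets overlapped in these 3.

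Radial spoke head 10-like contig_123496 averaged 6.14 ± 5.55 FPKM in 0d-28d and 1.54 ± 1.05 FPKM in control, with library 3 of 0d-28d at 12.5 FPKM and the 2 others at 3.53 and 2.39 FPKM. Its 0d-28d libraries were wholly above control, though by little where the lowest met the highest control library at 2.17 FPKM. The radial spoke head 1-like unigenes contig_116565 and contig_14333 averaged 0.748 ± 0.408 and 0.486 ± 0.409 FPKM in 0d-28d, and 0.475 ± 0.603 and 0.446 ± 0.491 FPKM in control. The other attachment zone unigene, contig_61269, held 7.07, 8.83 and 2.54 FPKM in 0d-28d and 3.70, 7.97 and 3.34 FPKM in control. These last 3 differences were smaller than the spread within triplets.

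Members highest outside 0d-28d were fewer. Of the 80, 52 had their highest value in a 0d-28d library, 11 in library 1, 5 in library 2 and 36 in library 3. Among the 49 tested it was 6, 4 and 22, against 5.77%, 6.60% and 11.9% of all tested unigenes. Both unigenes named spermatogenesis-associated protein 18-like, for a protein of mitochondrial quality control in mammals, peaked in 0d-7d library 3, with 13.4 FPKM (contig_24479) and 16.4 FPKM (contig_24485). In 0d-28d library 3 they stood at 0 and 0.153 FPKM. The ciliary dynein intermediate chain, contig_567658, an outer arm subunit, was detected weakly, with at most 0.891 FPKM in any library. Of the 8 radial spoke unigenes, the 5 named head 1-like were all at their highest outside 0d-28d, at 2.48 FPKM or less.

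Control library 1 affects every comparison with control. It was credited with the lowest value of all 15 libraries for 13 of the 49 tested members (26.5%), against 4.72% of all tested unigenes. A tied lowest value, as at 0 FPKM, was credited to the first library in order, and control came last. Ties can lower these shares by different amounts, so the contrast between them is uncertain. Its germ line list summed to 84.9 FPKM, against 126 and 67.4 FPKM in control libraries 2 and 3. Its gut enzyme list summed to 79.2 FPKM, against 17159 and 2214 FPKM, and its globin list to 3111 FPKM, against 9448 and 19848 FPKM. The part of these in the members' level was not tested.

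Other genes of the same machinery, taken by name, were also without a called unigene in any of the 10 comparisons by edgeR. In 0d-28d against control, kinesins, the plus-end microtubule motors, had a median log2 difference of 0.90 with 64 of 77 tested positive. An unadjusted p under 0.05 was found for 17 kinesins, all higher in 0d-28d, against 4.73% of all tested unigenes higher by that measure. Tubulin-modifying enzymes had 8 of 8 positive with a median of 0.90, and tubulins 6 of 9 with a median of 1.04. Without 0d-28d library 3 the kinesin median was 0.27, with 49 of 79 positive. An unadjusted p under 0.05 was then found for 11 kinesins, only 4 of them higher, against 5.78% of all tested unigenes in either direction. The medians without that library were 0.54 for the modifying enzymes (8 of 8) and -1.28 for tubulins (3 of 10), so the tubulin median turned. The tubulin list includes alpha-tubulin N-acetyltransferase contig_12412, an enzyme that acetylates tubulin, at 40.0 FPKM in 0d-28d library 3 and 11.4 FPKM or less elsewhere.

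The list of other motile cilium proteins had 3 of 3 tested positive with a median of 2.43, or 2 of 3 with 1.22 without 0d-28d library 3. Of these, MORN repeat-containing protein 5 contig_41138 held 13.4, 11.2 and 52.1 FPKM in 0d-28d, and 0.843, 6.96 and 7.76 FPKM in control. EF-hand family member B contig_246662, a protein of the axonemal microtubule lumen in other animals, held 0.027, 0 and 38.6 FPKM in 0d-28d, and 0.337, 0.375 and 0.036 FPKM in control. The Bardet-Biedl and nephrocystin list, whose products serve the base of the cilium, had 2 of 3 positive with a median of 0.81, or 3 of 3 with 0.37 without that library, and its untested Bardet-Biedl syndrome 7 unigene contig_418097 stood at 47.8 FPKM in 0d-28d library 3 and 0.475 FPKM or less elsewhere.

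Transport outside the cilium and division of germ cells gave other values. Cytoplasmic dynein and dynactin, the motor of retrograde transport in the cell body, had 1 of 3 positive with a median of -0.13. Meiosis names had 1 of 3 positive with a median of -0.28. Germ line names had 9 of 15 positive with a median of 0.53, muscle names 41 of 75 with a median of 0.06, gut enzymes 64 of 80 with a median of 4.84 and globins 2 of 22 with a median of -0.58. The germ line median without 0d-28d library 3 turned to -1.11 (4 of 15 positive) and the muscle median to -0.05 (35 of 77), while the medians were 5.27 for gut enzymes, -0.07 for globins, -0.20 for cytoplasmic dynein and dynactin and -0.09 for meiosis names. The germ line list ran from 49.4 to 465 FPKM in 0d-28d, from 45.0 to 64.8 in 0d-7d, from 50.7 to 163 in 30d-7d, from 57.0 to 133 in 30d-28d and from 67.4 to 126 in control. The value of 465 FPKM belongs to library 3, and the 2 other 0d-28d libraries, at 54.2 and 49.4 FPKM, were below every control library while their 59-member sums were above every control library.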

How the data were processed

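Per the file headers, the authors deposited read counts and FPKM values for each unigene and library in one table. Per the series title the unigenes were assembled de novo. Not given in the sources used here are assembler, aligner and counter. Total RNA of body sections was used for standard Illumina libraries, per the labels' protocols.

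Counts were tested with edgeR 4.0.16 (quasi-likelihood, filterByExpr with a minimum count of 10 and total of 15, TMM) in one fit of 15 libraries and 5 triplets, two-sided, Benjamini-Hochberg adjusted over 101090 unigenes at 0.05. Standard errors are the log2 difference over the square root of F. Residual degrees of freedom were 10 and the common coefficient of variation 0.923. All 10 pairs of triplets were compared. Alternatives used DESeq2 1.42.0, limma 3.58.1 on log2(FPKM + 1), other scaling, filters and sample sets. Counts at an unadjusted p and list medians without single libraries were added after the data were seen. The procedure was tested on simulated data.

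Named members are the marker, up to 3 tested members of highest mean FPKM per role, and those of lowest p (5 in the F test, 2 per comparison). Others named were chosen after their values were seen. Members and lists were chosen with earlier results of these data known. The gut list leaves out polyglutamylases, inhibitors and neurotrypsin, and the globin list a transcription factor. No sequences of the unigenes were used here.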

Additional observations from a re-analysis of the deposited data

How the results depend on the processing

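In the F test and the 10 comparisons, 0 members were called by edgeR, and likewise with RLE scaling, no filter, a minimum of 1 CPM in 3 libraries, limma on log2(FPKM + 1), DESeq2, each of the 15 libraries left out, fits of the compared libraries alone, and members without cytoplasmic or sperm names. With replicate number as a block 0 members were called too. Over all unigenes with an adjusted p, DESeq2 called 0.245% to 0.742% in these tests and limma 0% to 0.00594%. Each edgeR fit called 0 to 3 unigenes in all. At such shares, 0 calls among so few members says little about the members. DESeq2 gave 38 to 50 of the 80 members an adjusted p, depending on the test. The numbers do not pair the libraries: correlations of same-numbered deviations ran from -0.33 to 0.32 over 30 pairs, 3 of them over 0.1, and 3 of 15 libraries were closest to their own number. Leaving out single libraries moved the log2 difference of tektin-3 contig_286419 between -1.13 and 7.04 in 0d-28d against control, between -7.58 and 0.59 in 30d-28d against 0d-28d, and between -7.86 and 0.76 in 30d-7d against 0d-28d. It moved antigen 6 contig_286955 between -9.74 and 3.38 in 30d-7d against 0d-28d, and outer dense fiber protein 3 contig_3650 between -0.66 and 0.66 in 0d-28d against control. All but the last turned without 0d-28d library 3 alone. The last turned to 0.42 without that library and to 0.66 without control library 3, and the cause was not tested. The 3.38 of contig_286955 rests on 0, 2 and 1 reads in 30d-7d and on 0 and 0 reads in 0d-28d libraries 1 and 2. On the log2(FPKM + 1) scale of limma the median difference of tested members in 0d-28d against control was 0.51. The gap of 0d-28d library 3 to the next library was 4.14-fold in CPM. With 3 libraries each and a coefficient of variation of 0.923, the spread between libraries limits what the tests of single members can show.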
